A study of Mus musculus with 12 samples.

Results

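Fabp1 and Smyd1 are adjacent protein-coding genes on mouse chromosome 6, and their rows were read from a table of gene counts by the Ensembl identifiers that GENCODE M21 gives them (ENSMUSG00000054422 and ENSMUSG00000055027). They are 2 of the 43432 genes in the table, and both passed the filter on low counts that kept 16636 genes. The members were chosen by their measured difference between IL-25+ and IL-25- cells of the small intestine, where both had been found higher in IL-25+ cells in earlier results of the same data. Whether the gallbladder also took part in that choice is not recorded. The values of Fabp1 and Smyd1 are therefore a description throughout, with fitted differences and their standard errors (SE) but no p-value.

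The libraries came from sorted epithelial cells of Flare25 mice, whose Il25 locus drives a red fluorescent reporter. Live single EpCAM+ cells were sorted into red (IL-25+) and non-red (IL-25-) cells, and 4 groups of 3 bulk RNA-seq libraries were made: small intestine IL-25+, small intestine IL-25-, gallbladder IL-25+ and gallbladder IL-25-. All mice carried the reporter, and the treatment field calls them homeostatic. The gallbladder libraries alone also carry a label naming an injection with HDM AF647 on the day before collection, so tissue and this label cannot be told apart. The labels give no age or sex and do not say whether libraries of a group came from different mice, so an adjusted p here measures the spread between libraries.

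Fabp1 encodes liver fatty acid-binding protein, a small cytoplasmic carrier of long-chain fatty acids that is abundant in hepatocytes and in the absorptive enterocytes of the proximal small intestine. Smyd1 encodes a SET and MYND domain lysine methyltransferase known from heart and skeletal muscle, where it acts with muscle transcription factors and histone deacetylases and in myosin assembly. It was first described as a gene lying opposite Cd8b, a T cell gene. Tuft cells, the main epithelial source of IL-25 in the gut, are sparse chemosensory cells of the epithelium that trigger type 2 immunity.

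In GRCm38, Fabp1 lies on the plus strand at chr6:71199827-71205023 and Smyd1 on the minus strand at chr6:71213940-71322233. The genes converge, so that their 3′ ends face each other across 8916 bp. Fabp1 spans 5197 bp with 553 bp of annotated exon in 4 intervals, and Smyd1 spans 108294 bp with 4546 bp of exon in 13 intervals. No exon of either gene overlaps an exon of another annotated gene. The library kit does not mark strand, so a read within one of the genes cannot be assigned to a strand. The promoter windows below, from RefSeq (GRCm38.p6), run from 250 bases before to 50 bases after the transcription start and are shown because the pair is convergent and does not share a promoter. Capitals mark matches to the hexamers searched for on either strand.

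Fabp1, chr6:71199629-71199928, plus strand: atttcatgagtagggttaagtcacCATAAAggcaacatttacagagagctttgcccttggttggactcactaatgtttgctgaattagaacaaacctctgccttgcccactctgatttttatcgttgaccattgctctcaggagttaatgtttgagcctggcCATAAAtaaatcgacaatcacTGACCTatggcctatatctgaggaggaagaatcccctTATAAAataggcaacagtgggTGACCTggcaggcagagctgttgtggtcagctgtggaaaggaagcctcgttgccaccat
Smyd1, chr6:71262232-71262531, minus strand: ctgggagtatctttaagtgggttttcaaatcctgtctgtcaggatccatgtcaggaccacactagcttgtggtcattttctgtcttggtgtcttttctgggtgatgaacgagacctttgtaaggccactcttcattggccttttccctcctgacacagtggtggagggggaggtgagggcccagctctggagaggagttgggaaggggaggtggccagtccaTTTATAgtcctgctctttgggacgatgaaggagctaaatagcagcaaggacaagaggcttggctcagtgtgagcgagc

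The Fabp1 window held TATAAA at -30 to -25 from the start, a TATA box that 13.6% of all 32851 windows contain in some position. TGACCT, the hexamer that HNF4 and PPAR-RXR sites repeat, occurred at -67 to -62 and at -9 to -4 (16.3% of windows). CATAAA, the reverse of the CDX site TTTATG, occurred at -226 to -221 and at -88 to -83 (11.9% of windows). The Smyd1 window held TTTATA, the reverse of TATAAA, at -28 to -23. An E box (CANNTG, not capitalised above) was found in the Fabp1 window at 19 to 24, downstream of the start, and 72.3% of windows have one. The GATA site AGATAA, the octamer ATGCAAAT of POU factors and the MEF2 core had no match in either window, against 11.2%, 1.74% and 3.69% of all windows. The matches are letters in a window and not measured binding. GENCODE also annotates Smyd1 transcripts from a more distal start, and counts per gene cannot separate the starts.

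Sequencing depth ran from 23703449 to 64736650 counts per library. Levels are given as CPM, each count divided by the library total and scaled to 1e6, without further scaling, and fitted log2 fold changes use TMM-scaled library sizes, so the pair of measures need not match exactly. The summed level of 24 tuft cell markers was 55261 to 63620 CPM in small intestine IL-25+ libraries and 576 to 925 CPM in small intestine IL-25- libraries. In the gallbladder it was 43615 to 48111 CPM in IL-25+ libraries and 6137 to 7771 CPM in IL-25- libraries. Of these markers, 23 of 24 were called higher in IL-25+ cells in each tissue, beside 14.5% of all genes in the small intestine and 12.4% in the gallbladder. The exception in the gallbladder was Cd24a, a surface glycoprotein of several epithelial cell types, with 5675 ± 2200 CPM in gallbladder IL-25+ cells and 6939 ± 962 CPM in gallbladder IL-25- cells (SD, n = 3 each). Without Cd24a the sum was 38179 to 40692 CPM in gallbladder IL-25+ libraries and 55.0 to 274 CPM in gallbladder IL-25- libraries. Gallbladder IL-25- replicate 1 stood apart in holding intestinal transcripts: 26 abundant enterocyte genes had a median of 6.2% of their small intestine IL-25- mean there, against 0.071% to 0.467% in the other 5 gallbladder libraries. Small intestine IL-25- replicate 3 held gallbladder transcripts in earlier results of these data. The values of Fabp1 and Smyd1 that move by over 1.5 times without either library are given with and without it.

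Fabp1 was an abundant transcript of small intestine IL-25+ cells. Its counts were 135932, 194118 and 191542 in small intestine IL-25+ libraries and 17311, 30499 and 29636 in small intestine IL-25- libraries. These counts correspond to 4583, 6534 and 6710 CPM in IL-25+ cells, a mean of 5942 ± 1181 CPM, and to 528, 829 and 785 CPM in IL-25- cells, a mean of 714 ± 162 CPM (SD, n = 3 each). Every IL-25+ library was above every IL-25- library, and the ratio of the means was 8.32. Fabp1 was chosen for this difference, and the share of all genes that separate so is not given here. The fitted log2 fold change was 3.18 ± 0.71 (SE). Over all genes tested in this comparison, 27.2% were called at an adjusted p under 0.05, and the median log2 fold change was -0.07. Bulk libraries cannot separate a larger share of Fabp1-expressing cells from more Fabp1 RNA per cell.

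In the gallbladder Fabp1 was low in both fractions, and the fractions overlapped. Counts were 877, 320 and 934 in gallbladder IL-25+ libraries and 7362, 316 and 1178 in gallbladder IL-25- libraries. The IL-25+ libraries had 30.9, 13.5 and 30.2 CPM, with a mean of 24.9 ± 9.84 CPM, and the IL-25- libraries had 113.7, 10.2 and 33.7 CPM, with a mean of 52.5 ± 54.3 CPM (SD, n = 3 each). Gallbladder IL-25- replicate 1, the library with intestinal transcripts, held 83.1% of the Fabp1 counts of its group. Without it the IL-25- mean was 22.0 ± 16.7 CPM (SD, n = 2), and the ratio of the IL-25+ mean to the IL-25- mean was 1.13 in place of 0.473. The fitted log2 fold change was -1.27 ± 0.67 (SE) with all libraries and -0.21 without that library. In this comparison 26.8% of all genes were called, with a median log2 fold change of -0.15.

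Smyd1 was close to absent from IL-25- cells of both tissues and present in IL-25+ cells of both. Counts were 3882, 4379 and 3137 in small intestine IL-25+ libraries and 3, 4 and 10 in small intestine IL-25- libraries. The levels were 130.9, 147.4 and 109.9 CPM in IL-25+ cells, a mean of 129 ± 18.8 CPM, and 0.0915, 0.11 and 0.265 CPM in IL-25- cells, a mean of 0.155 ± 0.0955 CPM (SD, n = 3 each). The groups did not overlap, and the ratio of means was 835. Smyd1 too was chosen for this difference, and the share of all genes without overlap is not given here. The fitted log2 fold change was 9.82 ± 1.40 (SE), and 10.36 without small intestine IL-25- replicate 3, which held 10 of the 17 counts of its group. These 17 counts summed over the small intestine IL-25- libraries have an exact Poisson 95% interval of 9.9 to 27.2 counts, which covers counting error only.

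Gallbladder IL-25+ cells carried Smyd1 at unequal levels. Counts were 169, 765 and 21 in gallbladder IL-25+ libraries and 1, 3 and 2 in gallbladder IL-25- libraries. The IL-25+ libraries had 5.96, 32.3 and 0.678 CPM, a mean of 13.0 ± 16.9 CPM, and the IL-25- libraries had 0.0154, 0.0967 and 0.057 CPM, a mean of 0.0565 ± 0.0406 CPM (SD, n = 3 each). The lowest IL-25+ library was above the highest IL-25- library, and the share of all genes that separate so in the gallbladder is not given here. Replicate 2 held 80.1% of the counts of the gallbladder IL-25+ group. The fitted log2 fold change was 7.80 ± 1.41 (SE), and 5.75 without gallbladder IL-25+ replicate 2. The 6 counts summed over the gallbladder IL-25- libraries have an exact Poisson 95% interval of 2.2 to 13.1 counts.

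**Figure D1:**
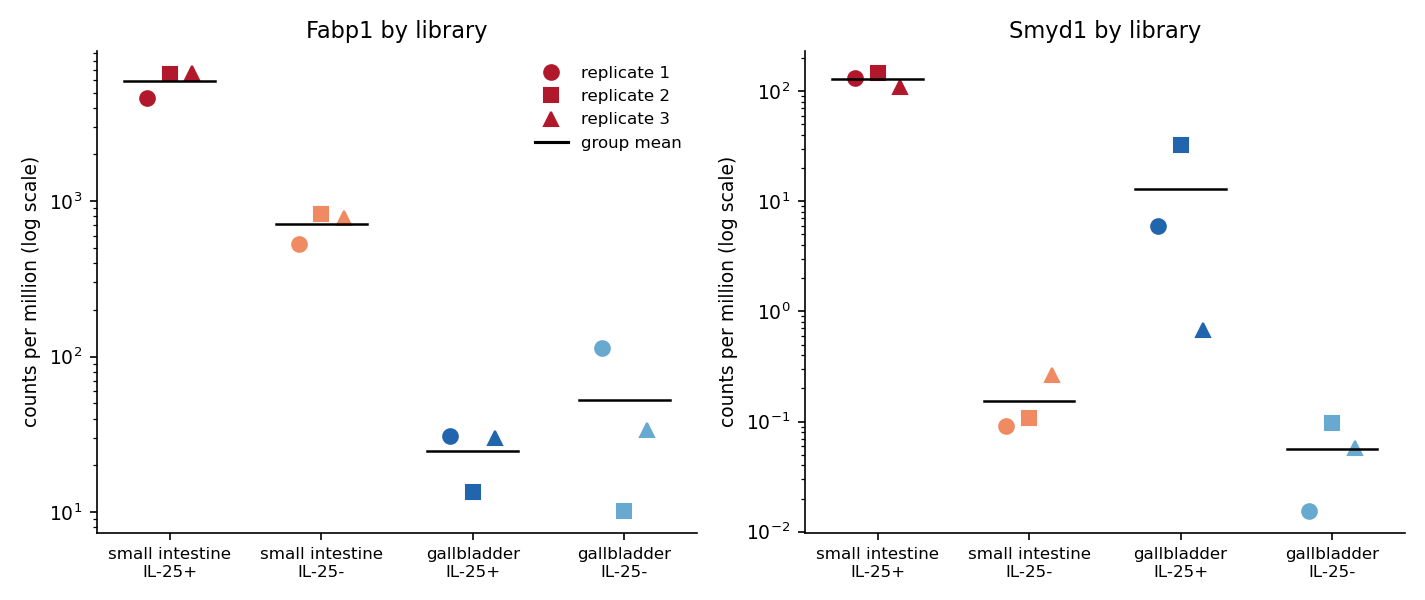
Level of Fabp1 (left) and Smyd1 (right) in each of 12 libraries, in CPM on a log scale, with a symbol per replicate and a line at the group mean. Fabp1 lies higher in every small intestine library than in any gallbladder library. Smyd1 lies higher in every IL-25+ library than in any IL-25- library, with gallbladder IL-25+ libraries between 0.678 and 32.3 CPM. Both genes were chosen for their small intestine difference, and the share of all genes that separate so is not given here.

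The order of the groups differed between the genes. For Fabp1 it was small intestine IL-25+, small intestine IL-25-, and then the gallbladder groups, whose libraries overlapped. For Smyd1 it was small intestine IL-25+, gallbladder IL-25+, and then the IL-25- groups of both tissues, whose ranges overlapped. Smyd1 ran from 0.0915 to 0.265 CPM in small intestine IL-25- libraries and from 0.0154 to 0.0967 CPM in gallbladder IL-25- libraries. Between tissues, Fabp1 differed by a fitted log2 fold change of -8.37 ± 0.91 in IL-25+ cells (gallbladder over small intestine) and -3.92 ± 0.74 in IL-25- cells. Smyd1 differed between tissues by -3.73 ± 1.02 in IL-25+ cells and by -1.71 ± 1.64 in IL-25- cells. The gallbladder fraction difference minus that of the small intestine was -4.45 ± 0.97 for Fabp1 and -2.02 ± 2.19 for Smyd1, in a comparison where 9.23% of all genes were called. Without gallbladder IL-25- replicate 1 this last value was -3.39 for Fabp1, and the tissue difference in IL-25- cells was -4.95 for Fabp1 and -0.99 for Smyd1. Without small intestine IL-25- replicate 3 the tissue difference of Smyd1 in IL-25- cells was -1.13. Without gallbladder IL-25+ replicate 2 the difference between the tissues' fraction differences was -4.07 for Smyd1, and its tissue difference in IL-25+ cells was -5.75.

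Per kilobase of annotated exon, Fabp1 was the more abundant transcript in all 4 groups. Its level per length was 10745 ± 2135 CPM per kb in small intestine IL-25+ cells, against 28.5 ± 4.13 CPM per kb for Smyd1 (SD, n = 3). In gallbladder IL-25+ cells Fabp1 averaged 45.0 ± 17.8 CPM per kb, against 2.85 ± 3.72 CPM per kb for Smyd1 (SD, n = 3). The library with the most gallbladder Smyd1, IL-25+ replicate 2, was the lowest of its group in Fabp1.

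Smyd1 counts were set beside those of Fabp1 in each library. Per 100 Fabp1 counts there were 2.86, 2.26 and 1.64 Smyd1 counts in small intestine IL-25+ libraries and 0.0173, 0.0131 and 0.0337 in small intestine IL-25- libraries. In the gallbladder there were 19.3, 239 and 2.25 in IL-25+ libraries and 0.0136, 0.949 and 0.17 in IL-25- libraries. The ratio differed between libraries: gallbladder IL-25+ replicate 2 had more Smyd1 than Fabp1 counts, and gallbladder IL-25- replicate 1 had 1 Smyd1 count beside 7362 Fabp1 counts. Over the 12 libraries the Pearson correlation of the genes' log2 CPM was 0.513 and Spearman's rho was 0.476, a description over libraries that share groups.

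**Figure D2:**
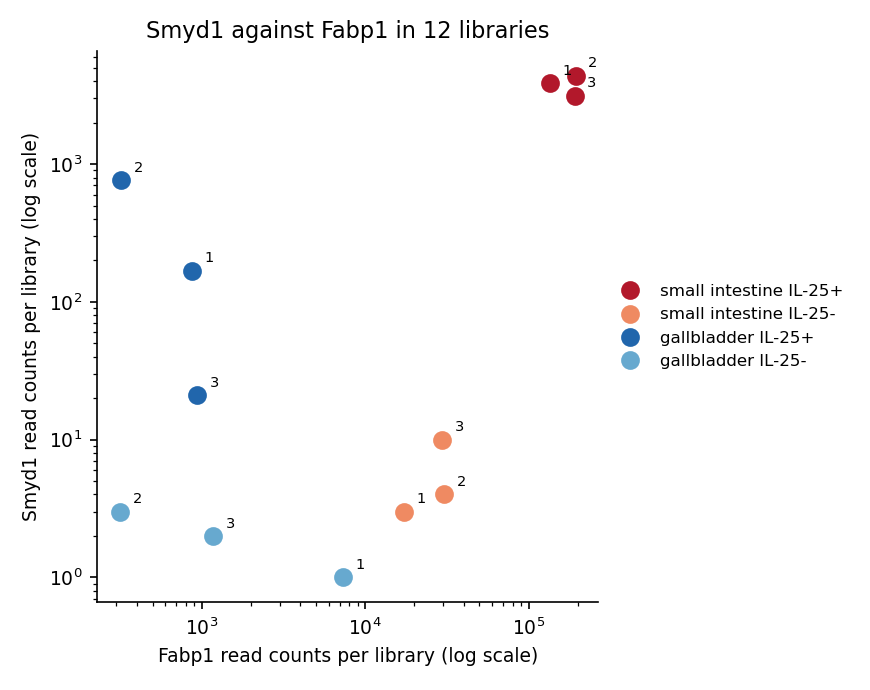
Smyd1 read counts against Fabp1 read counts in 12 libraries, both on log scales, coloured by group and numbered by replicate. Small intestine IL-25- libraries hold 17311 to 30499 Fabp1 counts with at most 10 Smyd1 counts, and gallbladder IL-25+ libraries hold 320 to 934 Fabp1 counts with 21 to 765 Smyd1 counts.

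Among the genes around the pair, 4 of 13 tested were called in the small intestine, beside 27.2% of all genes, and 2 of 13 in the gallbladder, beside 26.8% of all genes. GENCODE annotates 44 other genes within 500 kb, of which 25 are in the table and 13 passed the filter. In the small intestine 3 of the 13 were called higher in IL-25+ cells, 1 was called lower and 9 did not pass (edgeR quasi-likelihood test, Benjamini-Hochberg adjusted over all genes). Over all genes 14.5% were called higher and 12.8% lower. The median log2 fold change of the 13 was 0.55. In the gallbladder 1 was called higher, 1 was called lower and 11 did not pass, with a median of -0.24, and 2 were called lower without gallbladder IL-25+ replicate 3. Over all genes 12.4% were called higher and 14.4% lower.

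Krcc1, a coding gene on the opposite strand inside the span of Smyd1, showed little of the Smyd1 pattern. It had 12794, 8691 and 10150 counts in small intestine IL-25+ libraries and 5536, 8727 and 12004 counts in small intestine IL-25- libraries. The ranges overlapped, and the log2 fold change was 0.71 ± 0.25 (SE; edgeR adjusted p = 0.0524). That p passed the threshold under limma-voom (0.0096), without a filter (0.0456), with a stricter filter (0.0494) and without gallbladder IL-25- replicate 3 (0.0321). In the gallbladder Krcc1 had 12739, 8540 and 13603 counts in IL-25+ libraries and 25713, 13996 and 7477 in IL-25- libraries, a log2 fold change of 0.05 ± 0.25 (edgeR adjusted p = 0.909). Thnsl2, which lies on the other side of Fabp1, had log2 fold changes of -0.65 in the small intestine and -3.06 in the gallbladder (edgeR adjusted p = 0.709 and 0.0757). Its gallbladder counts were 0, 2 and 73 in IL-25+ libraries and 571, 132 and 166 in IL-25- libraries. The gallbladder difference of Thnsl2 passed as lower with DESeq2 (adjusted p = 0.0187), with limma-voom (0.00816), with the replicate block nested in tissue (edgeR, 0.0439) and without gallbladder IL-25+ replicate 3, where it was -7.27 (edgeR, 0.000605).

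Reep1, which encodes a protein that shapes the endoplasmic reticulum, was the neighbour with the largest call in the small intestine. It had 884, 1597 and 1464 counts in small intestine IL-25+ libraries and 73, 4 and 25 counts in small intestine IL-25- libraries, a log2 fold change of 5.73 ± 1.19 (SE; edgeR adjusted p = 0.00398), and 7.04 without small intestine IL-25- replicate 1. Its gallbladder counts were 134, 30 and 4 in IL-25+ libraries and 45, 31 and 8 in IL-25- libraries, with no call. Kdm3a, a histone H3 demethylase, averaged 147 ± 19.5 CPM in small intestine IL-25+ cells and 54.4 ± 9.23 CPM in small intestine IL-25- cells (SD, n = 3 each), a log2 fold change of 1.60 (edgeR adjusted p = 0.000223). Rmnd5a, part of a ubiquitin ligase, was called higher in IL-25+ cells of the small intestine by 0.55 (edgeR adjusted p = 0.0312) and of the gallbladder by 1.30 (edgeR adjusted p = 0.000141).

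Eif2ak3, the endoplasmic reticulum stress kinase PERK, was called lower in IL-25+ cells of both tissues, by -1.15 in the small intestine (edgeR adjusted p = 0.0282) and by -2.48 in the gallbladder (edgeR adjusted p = 0.000269). Its small intestine call was lost without small intestine IL-25+ replicate 1 or 3 (edgeR adjusted p = 0.0827 and 0.11) and without small intestine IL-25- replicate 2 or 3 (edgeR adjusted p = 0.0628 and 0.074). The small intestine call of Rmnd5a was lost under 11 of 22 alternatives. Those include leaving out small intestine IL-25+ replicate 1 or 3 (edgeR adjusted p = 0.11 and 0.117), and each small intestine IL-25- replicate in turn (0.114, 0.0737 and 0.0514).

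**Figure D3:**
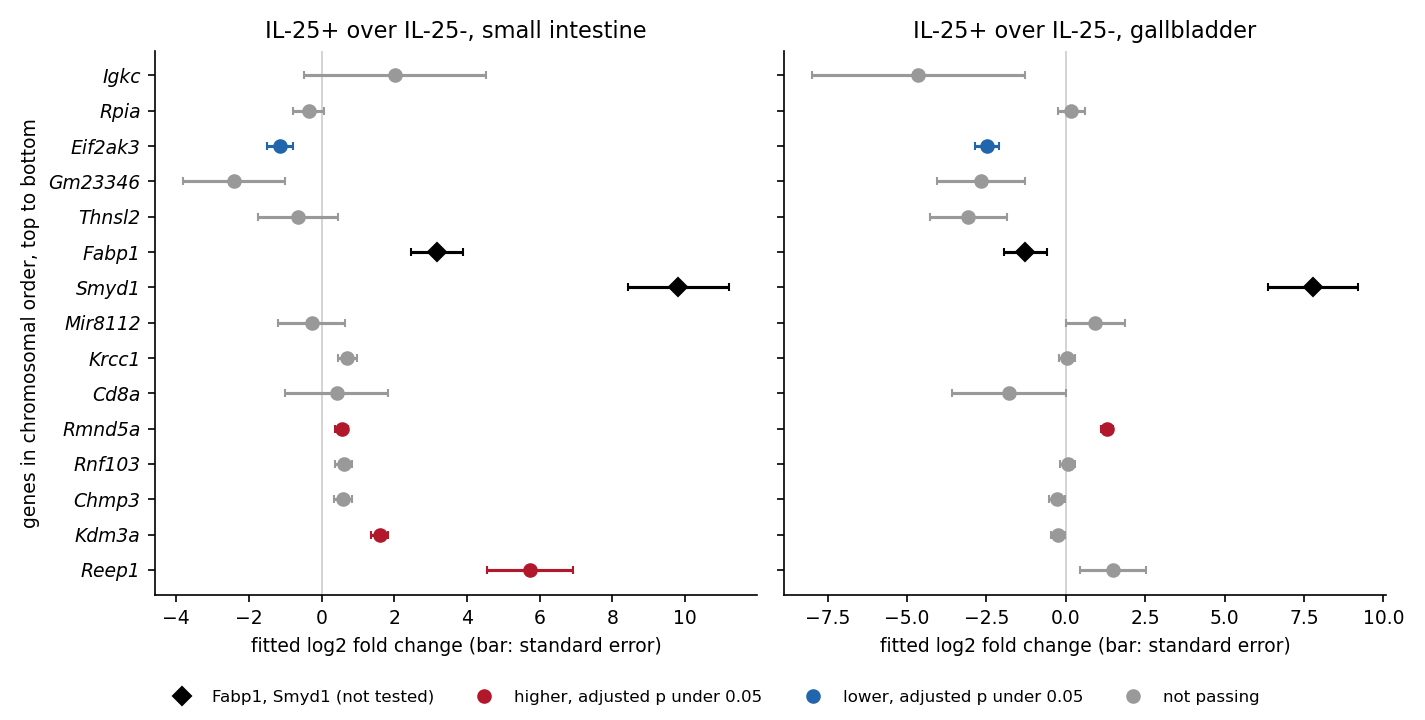
Fitted log2 fold change of IL-25+ over IL-25- cells with its standard error for Fabp1, Smyd1 and 13 neighbours in chromosomal order, in the small intestine (left) and the gallbladder (right). In the small intestine Smyd1 (9.82), Reep1 (5.73) and Fabp1 (3.18) lie furthest to the right, and in the gallbladder Smyd1 (7.80) alone lies to the right of 3.

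Fabp1 belongs to the family of cytoplasmic lipid-binding proteins. Of 15 other family members on the list, 8 were tested by edgeR. In each tissue 0 were called higher, 1 was called lower and 7 did not pass. Over all genes 14.5% were called higher in the small intestine and 12.4% in the gallbladder. The median log2 fold change of the 8 was -1.94 in each tissue. The count of higher members was also 0 at an unadjusted p under 0.05, with DESeq2 and with limma-voom. Fabp2, the intestinal fatty acid-binding protein that enterocytes make beside Fabp1, averaged 277 ± 54.0 CPM in small intestine IL-25+ cells and 1028 ± 453 CPM in small intestine IL-25- cells (SD, n = 3 each), a log2 fold change of -1.81 ± 1.35 (SE; edgeR adjusted p = 0.362). Rbp2, the enterocyte retinol carrier, averaged 492 ± 63.8 CPM in small intestine IL-25+ cells and 1725 ± 109 CPM in small intestine IL-25- cells (SD, n = 3 each), a log2 fold change of -1.67 ± 1.33 (SE; edgeR adjusted p = 0.391). Without gallbladder IL-25- replicate 1, which shares the estimate of spread, both passed as lower in the small intestine (edgeR adjusted p = 0.0244 for Fabp2 and 0.00383 for Rbp2), which made 3 calls. The count was 2 without small intestine IL-25+ replicate 2 or gallbladder IL-25+ replicate 1.

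The called members were carriers of low abundance. Fabp5, the epidermal fatty acid-binding protein, averaged 0.0899 ± 0.103 CPM in small intestine IL-25+ cells and 17 ± 4.79 CPM in small intestine IL-25- cells (SD, n = 3 each), and fell by 7.42 ± 1.64 on the log2 scale (edgeR adjusted p = 0.00466). Its log2 fold change was -8.71 without small intestine IL-25+ replicate 1. Fabp6, the ileal bile acid carrier, had 0 counts in the gallbladder IL-25+ libraries and averaged 4.89 ± 2.88 CPM in the gallbladder IL-25- libraries (SD, n = 3). Taking 3 counts over the IL-25+ group as the floor, it was at least 135-fold lower in gallbladder IL-25+ cells (edgeR adjusted p = 0.0019). In the gallbladder Fabp2 and Rbp2 had log2 fold changes of -4.80 and -4.53 (edgeR adjusted p = 0.0534 and 0.0562), and both passed without gallbladder IL-25- replicate 2 (0.0222 and 0.0217) or replicate 3 (0.0352 and 0.031). Without gallbladder IL-25- replicate 1, the library with intestinal transcripts, the values were -0.50 for Fabp2 and 0.00 for Rbp2 (edgeR adjusted p = 0.656 and 1.0). The count of lower members in the gallbladder was 2 without gallbladder IL-25+ replicate 1.

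In the small intestine the summed level of enterocyte markers was lower in IL-25+ libraries, opposite to Fabp1. The summed level of 27 enterocyte markers, a list without Fabp1, was 8471 to 10916 CPM in small intestine IL-25+ libraries and 25314 to 31981 CPM in small intestine IL-25- libraries. In this comparison edgeR called 0 of 27 higher and 6 lower, beside 14.5% of all genes higher and 12.8% lower. At an unadjusted p under 0.05 and with limma-voom 1 was higher, with DESeq2 0. The lower calls were 10 with DESeq2, and 26 with limma-voom and with only the groups compared. Their lowest number over the alternatives was 4. Without gallbladder IL-25- replicate 1, 22 were called lower and 1 higher. Vil1, the brush border protein villin, chosen after its values were seen, averaged 2445 ± 383 CPM in small intestine IL-25+ cells and 1807 ± 27.4 CPM in small intestine IL-25- cells (SD, n = 3 each; log2 fold change 0.57, edgeR adjusted p = 0.079). For 26 of them with a mean of at least 100 CPM in small intestine IL-25- cells, each library was expressed as a percentage of that mean. The small intestine IL-25+ libraries held a median of 33.0%, 27.8% and 22.0% over these genes, while Fabp1 stood at 642%, 915% and 940%. None of the 26 was above Fabp1 in any of those libraries, and the highest reached 125%, 121% and 160%. Fabp1 was chosen for its rise in this comparison and the 26 were not. Its place above them therefore follows in part from that choice.

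In the gallbladder, Fabp1 stood at 4.33%, 1.89% and 4.23% of the small intestine IL-25- mean in IL-25+ libraries and at 15.9%, 1.43% and 4.72% in IL-25- libraries. The median over the 26 enterocyte genes was 0.071%, 0.214% and 0.216% in IL-25+ libraries and 6.2%, 0.467% and 0.146% in IL-25- libraries. Between 4 and 10 of the 26 were above Fabp1 in a gallbladder library, among them Reg1, Slc2a2 and Vil1 in all 6. The summed enterocyte markers were 1333 to 1550 CPM in gallbladder IL-25+ libraries and 1793 to 3180 CPM in gallbladder IL-25- libraries. Of the 27, 1 was called higher and 13 lower in gallbladder IL-25+ cells, beside 12.4% of all genes higher and 14.4% lower. The lower calls were 22 or 21 without gallbladder IL-25- replicate 2 or 3. Without gallbladder IL-25- replicate 1 the calls were 2 higher and 9 lower, and 9 were also called lower without gallbladder IL-25+ replicate 1 or 2.

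**Figure D4:**
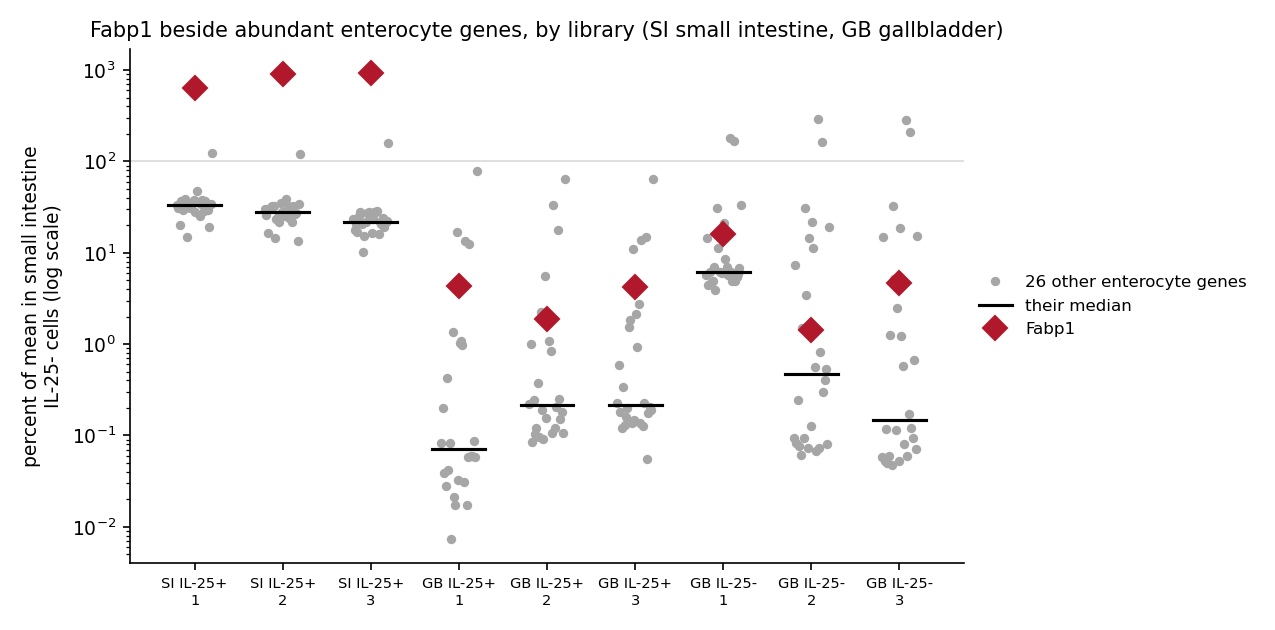
Level of Fabp1 (diamonds) and of 26 enterocyte genes (grey points, black line at their median) in each small intestine (SI) IL-25+ and gallbladder (GB) library, as a percentage of the mean of the small intestine IL-25- libraries on a log scale. Fabp1, chosen for its rise in the small intestine, lies at 642% to 940% in the small intestine IL-25+ libraries, above all 26 genes. It lies within their range in the gallbladder libraries.

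Hepatocytes are the other main site of Fabp1, and 20 of their marker genes were checked. Their summed level was 106 to 312 CPM in small intestine IL-25+ libraries and 989 to 2347 CPM in small intestine IL-25- libraries. The gallbladder values were 154 to 297 CPM in IL-25+ libraries and 1824 to 2122 CPM in IL-25- libraries. Ambp, Cps1 and Ttr held most of the counts. Serpina3k and Apoc1 had 0 counts in all 12 libraries, and Alb had at most 190 counts in a library. In small intestine IL-25+ cells edgeR called 0 of 10 tested higher and 5 lower, beside 14.5% of all genes higher and 12.8% lower. The higher count was also 0 at an unadjusted p under 0.05, with DESeq2 and with limma-voom. The lower calls were 3 without any 1 small intestine IL-25+ replicate, and without small intestine IL-25- replicate 1 or 3. They were 3 with the stricter filter and 8 with limma-voom. In gallbladder IL-25+ cells 1 was called higher and 3 lower, beside 12.4% of all genes higher and 14.4% lower. The lower calls there were 5 without gallbladder IL-25- replicate 3. The part of hepatocyte RNA in the gallbladder values of Fabp1 was not tested.

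Genes that bring fatty acids into cells and pack them into chylomicrons were called in both directions. Of 24 tested, 3 were called higher and 8 lower in IL-25+ cells in each tissue. The shares over all genes were 14.5% higher and 12.8% lower in the small intestine, and 12.4% higher and 14.4% lower in the gallbladder. The median log2 fold changes of the list were -1.29 in the small intestine and -1.28 in the gallbladder. Slc27a1, the fatty acid transport protein FATP1, averaged 116 ± 15.3 CPM in small intestine IL-25+ cells and 13.0 ± 4.52 CPM in small intestine IL-25- cells (SD, n = 3 each; log2 fold change 3.34, edgeR adjusted p = 2.12e-06). In the gallbladder it averaged 187 ± 24.3 CPM in IL-25+ cells and 27.1 ± 9.78 CPM in IL-25- cells (SD, n = 3 each; log2 fold change 2.61, edgeR adjusted p = 1.19e-05). Slc27a1 was thus higher in IL-25+ cells of both tissues, whereas Fabp1 overlapped between the gallbladder fractions.

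Acsl4, an acyl-CoA synthetase with a preference for arachidonic acid, rose by 3.31 in the small intestine and by 1.76 in the gallbladder on the log2 scale (edgeR adjusted p = 6.98e-06 and 0.000661). Acsl5, the acyl-CoA synthetase abundant in enterocytes, had lower levels in IL-25+ cells of both tissues, by -1.256 in the small intestine and -1.60 in the gallbladder (edgeR adjusted p = 0.00195 and 0.000347). Dgat2, which completes triglyceride synthesis, had a log2 fold change of -1.29 in the small intestine (edgeR adjusted p = 0.082, and 0.0475 without gallbladder IL-25+ replicate 2) and fell by 4.2 in the gallbladder (edgeR adjusted p = 0.000163). The 8 lower calls in the small intestine became 3 without small intestine IL-25+ replicate 2 or 3 or small intestine IL-25- replicate 3. They became 4 without IL-25+ replicate 1 or IL-25- replicate 2, and 5 with the replicate block nested in tissue. With limma-voom, and with only the groups compared, the lower calls were 15.

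Fabp1 is a target of PPAR alpha, the nuclear receptor that fatty acids activate, and other PPAR alpha targets of fatty acid oxidation did not share its small intestine pattern as a list. Of 21 tested, 2 were called higher, 6 lower and 13 did not pass in the small intestine, with a median log2 fold change of -0.55. The shares over all genes there were 14.5% higher and 12.8% lower. In the gallbladder 1 was called higher, 15 lower and 5 did not pass, with a median of -1.15, beside 12.4% of all genes higher and 14.4% lower. Slc25a20, the mitochondrial carnitine carrier, averaged 427 ± 51.9 CPM in small intestine IL-25+ cells and 62.2 ± 6.82 CPM in small intestine IL-25- cells (SD, n = 3 each; log2 fold change 2.93, edgeR adjusted p = 1.54e-06). It also rose in the gallbladder, by 1.75 (edgeR adjusted p = 7.45e-05).

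Hadha, a subunit of the mitochondrial trifunctional protein, had a log2 fold change of -0.28 in the small intestine (edgeR adjusted p = 0.197) and fell by 1.10 in the gallbladder (edgeR adjusted p = 0.000206).

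Among 18 transcription factors known to act on Fabp1 in liver or intestine, Pparg was the single one called higher in small intestine IL-25+ cells. Another 6 were called lower and 11 did not pass (median log2 fold change -0.87). The shares over all genes were 14.5% higher and 12.8% lower. Pparg, a nuclear receptor of the same family as PPAR alpha, averaged 67.8 ± 7.83 CPM in small intestine IL-25+ cells and 17.2 ± 9.64 CPM in small intestine IL-25- cells (SD, n = 3 each; log2 fold change 2.07 ± 0.42 SE, edgeR adjusted p = 0.00255). In the gallbladder it averaged 63.0 ± 5.87 CPM in IL-25+ cells and 82.5 ± 3.57 CPM in IL-25- cells (SD, n = 3 each; log2 fold change -0.61, edgeR adjusted p = 0.283). In the gallbladder 3 of the 18 were called higher, 6 lower and 9 did not pass (median -0.74), beside 12.4% of all genes higher and 14.4% lower. Cdx1, an intestinal homeobox factor chosen after its values were seen, averaged 106 ± 23.0 CPM in small intestine IL-25+ cells and 31.7 ± 1.89 CPM in small intestine IL-25- cells (SD, n = 3 each; log2 fold change 1.88, edgeR adjusted p = 0.124). In the gallbladder Cdx1 averaged 27.4 ± 16.8 CPM in IL-25+ cells and 0.597 ± 0.954 CPM in IL-25- cells (SD, n = 3 each; log2 fold change 5.23, edgeR adjusted p = 0.00286). The small intestine counts became 2 higher with limma-voom, with the block nested in tissue, with only the groups compared and without gallbladder IL-25- replicate 1 and 3 lower without small intestine IL-25+ replicate 2.

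Hnf4g, an intestinal HNF4, fell by 1.74 in small intestine IL-25+ cells and by 2.74 in gallbladder IL-25+ cells (edgeR adjusted p = 0.0183 and 0.0017). Its small intestine call was lost without small intestine IL-25+ replicate 2 or 3 (edgeR adjusted p = 0.0694 and 0.0769) or small intestine IL-25- replicate 3 (0.0506).

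**Figure D5:**
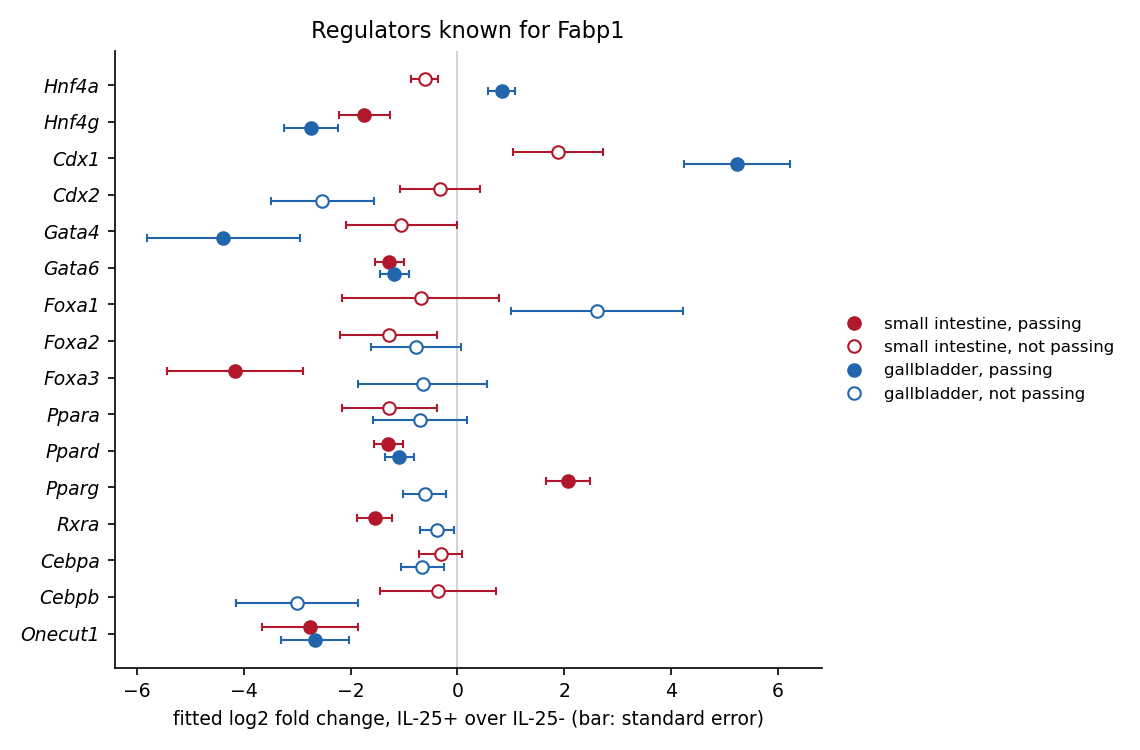
Fitted log2 fold change of IL-25+ over IL-25- cells with its standard error for 16 of the 18 transcription factors known to act on Fabp1, in the small intestine (red) and the gallbladder (blue), filled where the adjusted p was under 0.05. Pparg is the filled red point to the right of 0 (2.07), and Hnf4g lies to the left of 0 in both tissues (-1.74 and -2.74).

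Of the other SMYD methyltransferases, 4 were tested by edgeR. In IL-25+ cells 0 were called higher (beside 14.5% of all genes in the small intestine and 12.4% in the gallbladder), 1 lower and 3 did not pass in each tissue, with median log2 fold changes of -0.74 in the small intestine and -0.08 in the gallbladder. Smyd2, which methylates p53 and other proteins, averaged 1.72 ± 1.23 CPM in small intestine IL-25+ cells and 13.2 ± 8.89 CPM in small intestine IL-25- cells (SD, n = 3 each), a fall of 2.74 on the log2 scale (edgeR adjusted p = 0.0105). Its log2 fold change was -3.46 without small intestine IL-25+ replicate 1, and the call was lost without small intestine IL-25+ replicate 3 (edgeR adjusted p = 0.052) or small intestine IL-25- replicate 3 (0.0678). In the gallbladder Smyd2 fell by 2.66 (edgeR adjusted p = 0.0124). The higher count in the small intestine was also 0 at an unadjusted p under 0.05, with DESeq2 and with limma-voom. In the gallbladder it was 1 by each of these, from Smyd5, which averaged 37.3 ± 5.06 CPM in IL-25+ cells and 11.3 ± 4.24 CPM in IL-25- cells (SD, n = 3 each; log2 fold change 1.52, edgeR adjusted p = 0.0619). It passed without small intestine IL-25- replicate 2 (edgeR adjusted p = 0.0049).

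Of 17 partners and regulators of Smyd1 described in muscle, 9 passed the filter on low counts. In the small intestine 2 were called higher, 1 lower and 6 did not pass, beside 14.5% of all genes higher and 12.8% lower. In the gallbladder 2 were called higher, 2 lower and 5 did not pass, beside 12.4% of all genes higher and 14.4% lower. The median log2 fold changes were -0.11 in the small intestine and -0.24 in the gallbladder. Hdac1, a histone deacetylase of the class that Smyd1 recruits, averaged 75.1 ± 8.08 CPM in small intestine IL-25+ cells and 22.0 ± 4.68 CPM in small intestine IL-25- cells (SD, n = 3 each; log2 fold change 1.93, edgeR adjusted p = 0.000118). Its gallbladder rise was 1.95 (edgeR adjusted p = 0.000113). Mef2d, a MEF2 transcription factor made in many tissues, rose by 0.80 in the small intestine and by 1.31 in the gallbladder (edgeR adjusted p = 0.00288 and 7.58e-05). Ppargc1a, the coactivator PGC-1 alpha, fell by 2.14 in the small intestine and by 4.55 in the gallbladder (edgeR adjusted p = 0.00426 and 4.24e-05), and its gallbladder value was -5.55 without gallbladder IL-25+ replicate 2. Hdac2 had a log2 fold change of -0.47 in the small intestine (edgeR adjusted p = 0.179) and fell by 0.92 in the gallbladder (edgeR adjusted p = 0.0152), and the gallbladder call was lost without gallbladder IL-25+ replicate 1 or 3 (edgeR adjusted p = 0.0599 and 0.0505), which left 1 lower call.

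The summed level of 24 striated muscle markers was 18.2 to 53.2 CPM in small intestine IL-25+ libraries and 15.8 to 25.6 CPM in small intestine IL-25- libraries. In the gallbladder it was 7.26 to 27.3 CPM in IL-25+ libraries and 11.4 to 23.9 CPM in IL-25- libraries. Gallbladder IL-25+ replicate 2, with the most Smyd1 in the gallbladder, had the lowest sum of all libraries, 7.26 CPM. Myl1 and Myl2 had 0 counts in all 12 libraries, and Ckm had 0 counts in 10 of them. In the small intestine edgeR called 0 of 10 tested markers in either direction, beside 14.5% of all genes higher and 12.8% lower. At an unadjusted p under 0.05 there were 2 higher and 1 lower, with DESeq2 0 and 1, with limma-voom 4 and 3. Leaving out single libraries gave up to 2 higher (without gallbladder IL-25- replicate 1 or 2) and up to 1 lower (without replicate 3 of either small intestine fraction). In the gallbladder 2 were called higher and 2 lower, beside 12.4% of all genes higher and 14.4% lower. Both counts ran from 0 to 2 when single libraries were left out. The next 3 were chosen after their values were seen. Acta1, skeletal muscle actin, averaged 24.8 ± 18.9 CPM in small intestine IL-25+ cells and 8.92 ± 2.67 CPM in small intestine IL-25- cells (SD, n = 3 each; edgeR adjusted p = 0.113), and was called lower in the gallbladder, with 0.131 CPM in IL-25+ cells and 0.758 CPM in IL-25- cells (edgeR adjusted p = 0.0317). Casq1, a calcium store protein, averaged 3.80 ± 3.25 CPM in gallbladder IL-25+ cells and 0.125 ± 0.141 CPM in gallbladder IL-25- cells (SD, n = 3 each; log2 fold change 4.69, edgeR adjusted p = 0.0261). Ryr1, a calcium release channel, averaged 1.60 ± 0.381 CPM in gallbladder IL-25+ cells and 0.0154 ± 0.0268 CPM in gallbladder IL-25- cells (SD, n = 3 each; log2 fold change 6.03, edgeR adjusted p = 0.0298). In the small intestine the means were 1.58 CPM in IL-25+ cells and 0.34 CPM in IL-25- cells for Casq1 (edgeR adjusted p = 0.185), and 0.554 CPM in IL-25+ cells and 0.0706 CPM in IL-25- cells for Ryr1 (edgeR adjusted p = 0.181). Other markers of the list, also chosen after their values were seen, had lower means in IL-25+ cells. In the small intestine Ttn averaged 1.02 CPM in IL-25+ cells and 4.09 CPM in IL-25- cells, and Tnnt2 0.705 CPM and 3.80 CPM. In the gallbladder Tnni2 averaged 0.221 CPM in IL-25+ cells and 4.01 CPM in IL-25- cells. The part of muscle RNA in the Smyd1 values was not tested.

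T cell and leukocyte markers, from cells that express the neighbouring Cd8 genes, summed to 24.6 to 71.4 CPM in small intestine IL-25+ libraries and 44.9 to 59.3 CPM in small intestine IL-25- libraries. In the gallbladder they summed to 4.78 to 20.3 CPM in IL-25+ libraries and 18.1 to 234.5 CPM in IL-25- libraries.

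The genes most like each member were ranked by the Pearson correlation of log2 CPM over the 12 libraries, which is a description. For Fabp1 they were Cst6 (0.985), Hcn3 (0.984), Rprml (0.984), Gm37215 (0.976) and Tmem106a (0.971). Cst6, which encodes the protease inhibitor cystatin E/M, averaged 64.5 ± 20.6 CPM in small intestine IL-25+ cells, 3.80 ± 0.62 CPM in small intestine IL-25- cells, 0.0117 ± 0.0203 CPM in gallbladder IL-25+ cells and 0.0983 ± 0.143 CPM in gallbladder IL-25- cells (SD, n = 3 each). Tmem106a averaged 161.2 ± 35.0 CPM in small intestine IL-25+ cells and 58.8 ± 5.35 CPM in small intestine IL-25- cells, and 20.01 ± 11.1 CPM in gallbladder IL-25+ cells and 15.04 ± 3.08 CPM in gallbladder IL-25- cells (SD, n = 3 each).

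For Smyd1 the most alike were F930017D23Rik (0.994), 1810058I24Rik (0.974), Rgl2 (0.972), Vmn2r26 (0.971) and Gm16897 (0.967). Vmn2r26, a vomeronasal receptor gene on the same chromosome, averaged 43.3 ± 12.1 CPM in small intestine IL-25+ cells and 0.0837 ± 0.053 CPM in small intestine IL-25- cells, and 3.52 ± 2.19 CPM in gallbladder IL-25+ cells and 0.0215 ± 0.0372 CPM in gallbladder IL-25- cells (SD, n = 3 each). F930017D23Rik averaged 16.2 ± 2.94 CPM in small intestine IL-25+ cells, 0.0179 ± 0.0155 CPM in small intestine IL-25- cells, 1.83 ± 1.98 CPM in gallbladder IL-25+ cells and 0.00955 ± 0.0165 CPM in gallbladder IL-25- cells (SD, n = 3 each). Neither member was close to the other in this ranking, where Smyd1 was number 3309 for Fabp1. By Spearman's rho the list for Fabp1 kept Hcn3 and Rprml, and the list for Smyd1 kept Rgl2.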

How the data were processed

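RNA-seq was done on 12 libraries of sorted epithelial cells, 3 in each of 4 groups given by the labels. The authors deposited raw counts of reads for each Ensembl gene; per the submitters' processing notes the reads were aligned to GRCm38, and the notes name STAR 2.7.2b and DESeq2 1.26. The counter, its strand setting and the annotation release are not given in the sources used here. Of 43432 genes, 42462 were matched to GENCODE M21. A further 11 columns of the table fit no sample here and were left out. Depth per library is in the ranges above, and replicate libraries were distinct (chi-square per degree of freedom at least 49.2).

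From these counts, edgeR 4.0.16 in R 4.3.3 was fitted to the 12 libraries together with group as its factor: filterByExpr (minimum count 10), TMM scaling, a robust quasi-likelihood fit and two-sided F tests for 5 comparisons (the IL-25 fractions within either tissue, the tissues within either fraction, and their interaction), with Benjamini-Hochberg adjustment over all 16636 genes and a threshold of 0.05. The standard error is the log2 fold change divided by the square root of F. Levels are plain CPM. The steps were tested on simulated data with known changes. Tried as alternatives were DESeq2 1.42.0, limma-voom (limma 3.58.1), RLE scaling, no filter, a stricter filter of 5 CPM in 3 libraries, replicate blocks, the compared groups alone, each library left out, small intestine IL-25- replicate 3 and gallbladder IL-25- replicate 1 left out together, and no mitochondrial genes. Figures used matplotlib 3.10.9.

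The members, the gene and marker lists, the motifs and the alternatives were chosen with earlier results of these data known. Named beside the pair are all tested neighbours with a call, Krcc1 as the coding gene inside Smyd1, and Thnsl2. Also named are up to 4 members of a list with the lowest adjusted p, and the 5 genes most alike. Smyd1 and Fabp1 protein sequences were not used here, and some genes that the rule would name are not reported here.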

Additional observations from a re-analysis of the deposited data

Results flagged for a closer look

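For 8 of the genes named beside Fabp1 and Smyd1, the difference between IL-25+ and IL-25- cells in the gallbladder was not the same as in the small intestine by a test of the interaction in edgeR, adjusted over all genes, of which 9.23% were called. Values here are the gallbladder log2 fold change minus that of the small intestine, over 3 libraries per group. Among calls over all genes, 39.3% of these differences were above 0 with TMM scaling and 51.2% with RLE scaling.

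For Pparg, a regulator of Fabp1, the difference was -2.68 (edgeR adjusted p = 0.0106). Pparg was higher in IL-25+ cells of the small intestine and had no call in the gallbladder.

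Among genes of lipid handling, the difference was -9.08 for Fabp6 (edgeR adjusted p = 0.0232), a fitted value that depends on the prior count since gallbladder IL-25+ libraries had 0 counts. It was -2.91 for Dgat2 (edgeR adjusted p = 0.0251) and -0.82 for Hadha (edgeR adjusted p = 0.0342). Acsl4 (-1.55, edgeR adjusted p = 0.0295) and Slc25a20 (-1.17, edgeR adjusted p = 0.0282) were higher in IL-25+ cells of both tissues, by less in the gallbladder.

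Ppargc1a, the PGC-1 alpha coactivator, was lower in IL-25+ cells of both tissues, with a difference of -2.41 (edgeR adjusted p = 0.0344). Kdm3a, the neighbour on chromosome 6, had a difference of -1.84 (edgeR adjusted p = 0.00301). The label naming HDM AF647 is on the gallbladder libraries alone, so tissue and that label cannot be told apart in any of these differences.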

How the results depend on the processing

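Over 22 alternatives the fitted log2 fold change of Fabp1 in the small intestine ran from 2.96 to 3.44. No named gene with a call reversed its direction in 1611 recomputed values; 26 calls were lost and 40 gained, and 175 of 1498 recomputed list counts moved by over 1.5 times. Leaving out single libraries gave 9.53 to 10.36 for Smyd1 in the small intestine, 5.75 to 8.35 for Smyd1 and -1.77 to -0.21 for Fabp1 in the gallbladder, -5.75 to -3.14 and -2.23 to -0.99 for the tissue difference of Smyd1 in IL-25+ and IL-25- cells, and -4.95 to -3.39 and -4.07 to -1.46 for the interaction of Fabp1 and Smyd1. Without both libraries that share transcripts, the values were 10.35 for Smyd1 in the small intestine, -0.45 for its tissue difference in IL-25- cells and -3.38 for the interaction of Fabp1. With limma-voom the interaction of Smyd1 was -3.62 and 6837 genes were called in the small intestine, against 4529. DESeq2 called 2364 genes in the interaction, against 1536. RLE scaling shifted the all-gene median (log2) by -0.12 in the small intestine and by 0.11 and 0.16 in the tissue difference of IL-25+ cells and the interaction. The cause of these shifts was not tested.

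Replicate numbers are shared between groups. Within a tissue, same-numbered libraries had correlations of -0.0281 to 0.162 and differently numbered libraries of -0.179 to 0.0957. Not every library correlated best with its own number, so the numbers were not taken to pair them. With 3 pairs per tissue these correlations cannot show that pairing is absent. With the number as a replicate block 4254 genes were called in the small intestine and 4074 in the gallbladder, and Fabp1 in the gallbladder had -1.14. With the block nested in tissue the tissue difference in IL-25+ cells was -6.83 for Fabp1 with 1373 genes called, against 3938, and in IL-25- cells it was -2.35 for Smyd1 with 1526 genes called, against 4099; tissues are then compared between blocks. Depth limits Smyd1 in IL-25- cells, where libraries held 1 to 10 counts, and searching the bases before the start alone removed the E box match of Fabp1 and no other.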
